A study of Mus musculus with 6 samples.

Results

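The sarcomere genes described here are 46 genes that encode the actins, troponins, tropomyosins, myosin light chains, myosin binding proteins, titin, M-band and Z-disc proteins of striated muscle, without the myosin heavy chains. They were chosen by gene symbol, and all 46 were found among the 21671 genes of the deposited expression table. Of these, 17 belong to the thin filament, 9 to the thick filament, 4 are titin and the M-band proteins, and 16 belong to the Z-disc or are, like desmin, linked to it.

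The sarcomere is the contractile unit of skeletal and cardiac muscle. Thin filaments of actin carry tropomyosin and the calcium-sensing troponin complex, and are anchored in the Z-disc by α-actinin. Thick filaments of myosin are held in register by titin and the M-band. In adult skeletal muscle these genes are expressed mainly in myofibres and in myoblasts that have begun to differentiate, many of them as separate fast, slow, cardiac or developmental isoforms, and quiescent satellite cells (SCs), the muscle stem cells that lie beneath the basal lamina, are not known for a contractile apparatus.

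RNA-Seq was performed on cells freshly sorted from the gastrocnemius muscles of mdxITGAM-DTR mice of both sexes, 10 to 12 weeks old, in 3 groups of 2 libraries. All 3 groups share the mdx mutation, which removes dystrophin, and a transgene in which the ITGAM (CD11b) promoter drives a diphtheria toxin (DT) receptor, which exposes monocytes and macrophages to injected DT. SCs CTRL came from mice injected with the vehicle PBS. SCs DT came from mice injected with DT every 4 days, and cells were collected at day 15. The α7Sca1 cells came from DT-injected mice as well. SCs had been sorted as lineage-negative, Sca1-negative and α7-integrin-positive cells, and α7Sca1 cells carry both surface proteins. Each library is a pool of 2 mice, so every group has n = 2, and no DT-injected mice without the transgene are among the 6 libraries.

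Levels are RPKM, reads scaled to transcript length and library size. Sorted by size, the values of any pair of libraries match within 0.0192 RPKM up to a common maximum of 7389 RPKM. The libraries therefore share one distribution, which hides their depth and any shift common to most genes. Differences between groups were tested by limma on log2(RPKM + 1) in the 13934 genes that reached above 0.25 RPKM in some library, with Benjamini-Hochberg adjustment over all of them and a threshold of 0.05. Fold changes on this scale understate the change of genes of low RPKM. In the check of the labels, Itga7, which encodes α7-integrin, was at 75.0, 77.6, 78.3 and 77.6 RPKM in the 4 SC libraries and at 41.8 and 48.5 RPKM in the α7Sca1 libraries. Ly6a, which encodes Sca1, was at 31.0 and 21.6 RPKM in SCs CTRL, at 51.8 and 55.2 RPKM in SCs DT and at 344.0 and 247.8 RPKM in α7Sca1 cells. Pax7, the transcription factor that defines SCs, was at 4.87, 5.01, 3.45 and 2.67 RPKM in the SC libraries and at 0.380 and 0.319 RPKM in α7Sca1 cells, in which Cfd, a secreted factor of adipocytes, stood at the highest value of the table in both libraries.

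Sarcomere transcripts were more abundant in SCs DT than in SCs CTRL and scarce in α7Sca1 cells. The 46 genes summed to 894.0 and 1422 RPKM in SCs CTRL, to 2955 and 3813 RPKM in SCs DT and to 193.9 and 146.8 RPKM in α7Sca1 cells. This is 0.466% and 0.741%, 1.54% and 1.99%, and 0.101% and 0.0765% of all RPKM of each library. The 3 groups did not overlap in this sum, and the ratio of SCs DT to SCs CTRL was 2.92. In sorted cells, a larger share of cells that express these genes and more RNA per cell cannot be told apart.

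**Figure D1:**
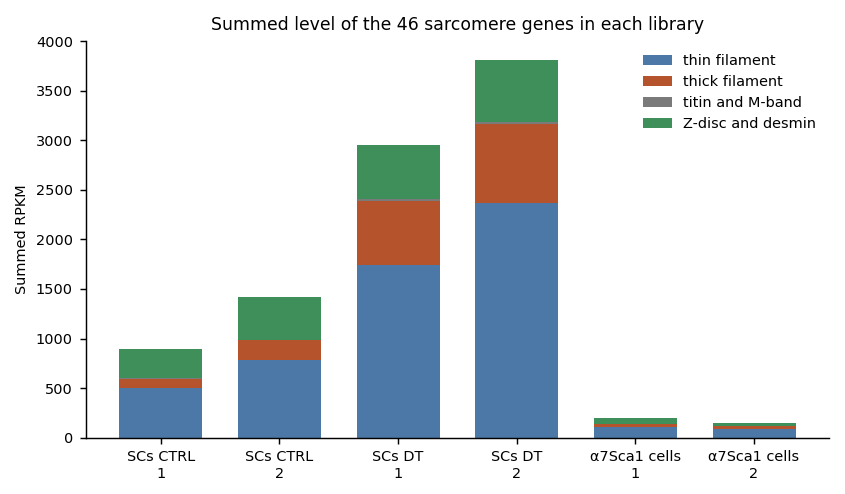
Summed RPKM (y axis, from 0) of the 46 sarcomere genes in each of the 6 libraries (x axis), stacked by thin filament, thick filament, titin and M-band, and Z-disc with desmin. The SCs DT bars reach 2955 and 3813 RPKM, and the α7Sca1 bars 193.9 and 146.8 RPKM.

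Of the 46 genes, 44 could be tested, and 12 rose in SCs DT against SCs CTRL while none fell, where 0.352% of all tested genes passed in the upward direction and 0.0933% in the downward one. Their log2 fold changes ranged from 1.84 to 3.31 with standard errors of 0.17 to 0.37, and their adjusted p-values (limma) from 0.00608 to 0.0426. The median over the 44 genes was 1.51, beside -0.01 over all genes tested, and 43 of the 44 had a positive value, as did 47.9% of all genes. In 43 of the 44 both SCs DT libraries lay above both SCs CTRL libraries, as did 21.6% of all genes, and in 1 gene both lay below, as did 25.1% of all genes. By role, 3 of 17 thin filament genes, 4 of 9 thick filament genes, 0 of 4 titin and M-band genes and 5 of 14 tested Z-disc genes rose, with median log2 fold changes of 1.51, 1.96, 0.81 and 1.18. A further 28 genes were higher at an unadjusted p under 0.05 (5.26% of all genes, and 5.14% in the downward direction) but missed the adjusted threshold, 10 of them with an adjusted p under 0.1 (limma). Tcap, Myoz1, Tnnc2 and Myot had the largest log2 fold changes.

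These calls rest on few libraries. With 2 libraries against 2 an exact permutation test cannot give a p below 0.333, and the calls therefore depend on the spread that limma pools over the 3 groups. Without SCs CTRL replicate 1 or without SCs DT replicate 2, 0 of the 44 genes were called by limma, with 33 and 34 at an unadjusted p under 0.05, and no gene of the whole table was called. With either α7Sca1 library left out 2 of the 44 were called. No sarcomere gene was called in a fit on the 4 SC libraries alone or without the filter on low values, with 40 at an unadjusted p under 0.05 in each. How many of all genes passed there is not given here, so a loss of calls particular to the sarcomere genes cannot be read from these counts. Tpm3 alone was negative in all of these fits. The SCs CTRL libraries themselves differed, with 43 of the 46 genes higher in replicate 2 than in replicate 1, against 55.5% of all tested genes. Replicate 1 of SCs CTRL also held 2287 RPKM of the fibroblast collagen gene Col1a1, beside 192.5 RPKM in replicate 2. The part of these differences in the result was not tested.

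**Figure D2:**
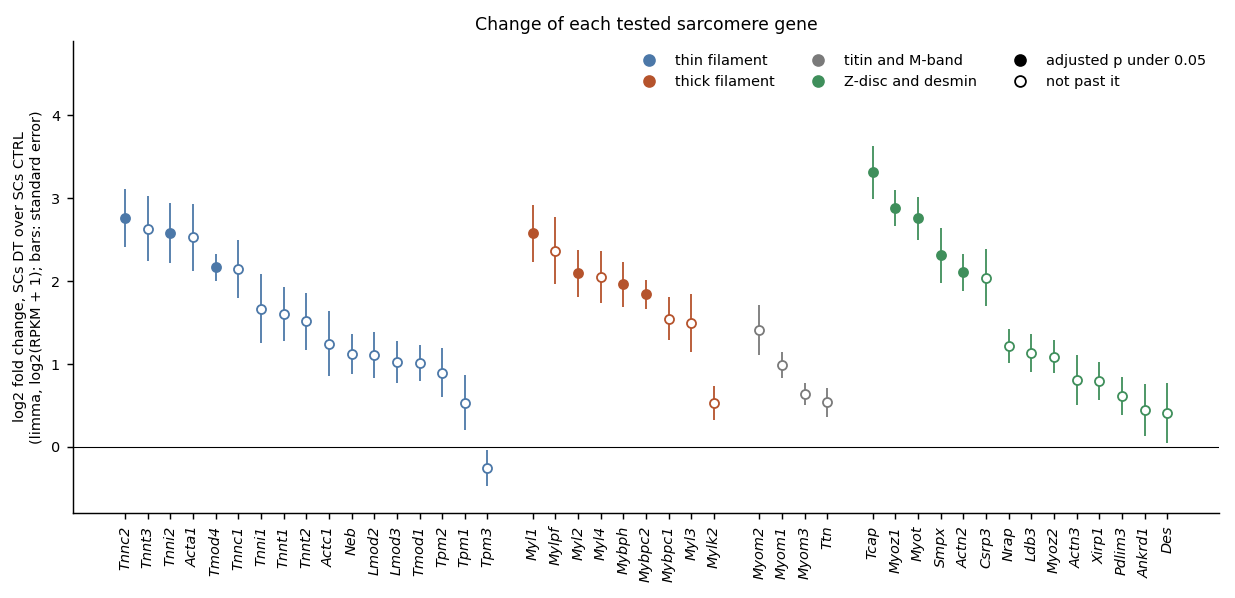
Log2 fold change of SCs DT over SCs CTRL (y axis, log2(RPKM + 1) scale, bars show the standard error from limma) for the 44 tested sarcomere genes (x axis), grouped by role and ordered by size within each group. Filled points mark the 12 genes with an adjusted p under 0.05, and Tpm3 is the one gene below 0.

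Because most of these genes differed in one direction, their promoters were read. RefSeq sequence (GRCm38.p6) was at hand for 34 of the 46 genes, and the 250 bases before each start site were searched on both strands for the E-boxes CAGCTG and CACCTG that myogenic bHLH factors can bind, for the CArG box of serum response factor, for the MCAT element CATTCC and for the MEF2 site. Of these, CAGCTG was found in 14 of the 34 promoters (41.2%), beside 14.7% of all 27025 promoters of the same length. CACCTG was found in 12 (35.3%, beside 19.4%), CATTCC in 11 (32.4%, beside 14.4%), the CArG box in 5 (14.7%, beside 1.62%) and the MEF2 site in 4 (11.8%, beside 3.42%). TATAAA, read on the coding strand alone, was found in 2 (5.88%, beside 8.94%). The general E-box CANNTG, of which CAGCTG and CACCTG are forms, was present in 29 of the 34 (85.3%) and in 69.3% of all promoters. Of the 8 promoters of genes that rose in SCs DT 3 held CAGCTG, those of Myl1, Myl2 and Mybph. It was in 11 of the other 26, so the motif did not separate them. The CArG box was in 0 of the 8 and in 5 of the other 26, and CATTCC in 3 of the 8 and in 8 of the other 26. A match to these letters is a description and not a binding site.

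To let these elements be seen, 6 promoters are shown, those of the most abundant actin, light chain and Z-disc-linked genes and of Mybph, and they were chosen after the values were seen. Matches to CAGCTG, the CArG box, CATTCC and TATAAA are in capitals, a match on the other strand is written as its reverse complement, and each run is the 250 bases before the start, 5′ to 3′ on the gene's own strand.
Acta1, chr8:123894776-123895025, minus strand: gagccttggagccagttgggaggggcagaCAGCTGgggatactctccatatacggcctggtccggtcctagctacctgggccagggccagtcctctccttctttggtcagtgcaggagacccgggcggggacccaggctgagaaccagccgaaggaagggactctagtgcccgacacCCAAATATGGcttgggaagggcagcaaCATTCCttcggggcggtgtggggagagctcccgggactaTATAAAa
Actc1, chr2:114052876-114053125, minus strand: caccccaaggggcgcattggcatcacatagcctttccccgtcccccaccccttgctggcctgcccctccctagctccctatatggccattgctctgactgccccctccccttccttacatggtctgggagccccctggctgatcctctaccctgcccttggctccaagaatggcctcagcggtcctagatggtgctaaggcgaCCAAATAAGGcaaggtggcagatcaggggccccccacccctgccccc
Myl1, chr1:66945057-66945306, minus strand: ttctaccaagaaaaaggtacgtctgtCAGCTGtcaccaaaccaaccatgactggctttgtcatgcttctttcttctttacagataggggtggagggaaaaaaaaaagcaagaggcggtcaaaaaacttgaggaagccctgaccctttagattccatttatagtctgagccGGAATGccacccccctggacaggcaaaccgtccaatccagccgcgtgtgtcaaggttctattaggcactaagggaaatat
Mylpf, chr7:127211358-127211607, plus strand: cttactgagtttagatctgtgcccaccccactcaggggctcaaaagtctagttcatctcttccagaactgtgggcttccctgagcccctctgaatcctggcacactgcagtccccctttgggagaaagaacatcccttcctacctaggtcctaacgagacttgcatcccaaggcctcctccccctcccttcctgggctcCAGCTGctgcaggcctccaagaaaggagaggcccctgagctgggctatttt
Mybph, chr1:134193198-134193447, plus strand: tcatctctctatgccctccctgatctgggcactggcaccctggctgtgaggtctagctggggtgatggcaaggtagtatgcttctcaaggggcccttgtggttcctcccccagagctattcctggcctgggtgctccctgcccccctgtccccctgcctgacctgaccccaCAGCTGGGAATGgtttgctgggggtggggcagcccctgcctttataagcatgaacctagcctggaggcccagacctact
Des, chr1:75360042-75360291, plus strand: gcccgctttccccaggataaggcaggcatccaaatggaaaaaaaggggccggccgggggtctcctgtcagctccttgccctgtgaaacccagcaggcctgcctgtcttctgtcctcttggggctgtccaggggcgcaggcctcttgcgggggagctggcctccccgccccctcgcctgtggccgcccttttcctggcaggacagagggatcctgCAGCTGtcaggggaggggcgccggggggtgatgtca
The CArG box begins 73 bases before the start of Acta1 and 47 bases before that of Actc1. In Mybph, CAGCTG begins 79 bases before the start and runs directly into the CATTCC match at 73 bases. The CAGCTG of Acta1 and Myl1 lies farther out, beginning 221 and 224 bases before the start, and that of Mylpf and Des at 51 and 36 bases.

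Among the thin filament genes, sarcomeric actin was the most abundant. Acta1, the skeletal α-actin of adult muscle, was at 107.5 and 197.3 RPKM in SCs CTRL, at 631.0 and 1131 RPKM in SCs DT and at 22.9 and 16.0 RPKM in α7Sca1 cells. The 3 groups did not overlap, and Acta1 was the gene of highest RPKM among the 46 in SCs DT, yet its log2 fold change of 2.53 (standard error 0.41) missed the threshold (adjusted p = 0.0622, limma). Actc1, the cardiac α-actin that is also the developmental form in skeletal muscle, was at 43.6 and 86.9 RPKM, at 148.9 and 145.8 RPKM, and at 8.26 and 4.27 RPKM in the same order of groups. Its log2 fold change in SCs DT was 1.25 (standard error 0.39, adjusted p = 0.312, limma). Of the 50-base stretches of Acta1 transcripts, 2.00% also occur in the cytoplasmic actins Actb and Actg1, and none of Actc1 do.

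The fast troponin subunits had the largest log2 fold changes of the thin filament on the log2(RPKM + 1) scale, while the largest ratio of mean RPKM, 18.4, was that of Tmod4, a gene of low RPKM. Tnnc2, the calcium-binding subunit of fast fibres, was at 15.8 and 34.0 RPKM in SCs CTRL, at 153.8 and 173.1 RPKM in SCs DT and at 3.77 and 4.52 RPKM in α7Sca1 cells. It rose in SCs DT by 2.76 on the log2 scale (standard error 0.35, adjusted p = 0.0286, limma). Tnnc2 overlaps Ube2c on the opposite strand, 55.0% of its 50-base stretches are shared, and the SMART-seq2 libraries do not mark strand, so reads of both genes cannot be told apart there. Ube2c, a gene of mitotic exit, was itself at 30.4 and 47.8 RPKM in SCs CTRL and at 20.7 and 15.9 RPKM in SCs DT.

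Tnni2, the fast inhibitory subunit, was at 12.7 and 28.7 RPKM in SCs CTRL, at 105.0 and 136.3 RPKM in SCs DT and at 3.22 and 2.87 RPKM in α7Sca1 cells. Its rise in SCs DT was 2.58 on the log2 scale (standard error 0.37, adjusted p = 0.0423, limma). Tnnt3, the fast tropomyosin-binding subunit, was at 9.23 and 21.2 RPKM, at 76.4 and 112.0 RPKM, and at 2.08 and 3.07 RPKM in the same order. It lay just outside the threshold (log2 fold change 2.63, adjusted p = 0.0503, limma), and all 3 fast troponin genes were thus several-fold higher in both SCs DT libraries than in either SCs CTRL library. In NCBIM37, Tnni2 and Tnnt3 lie 54426 bases apart on chromosome 7, and Tnni1 and Tnnt2 lie 29886 bases apart on chromosome 1.

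The slow and cardiac troponins had smaller ratios. Tnnc1, shared by slow fibres and heart, was at 6.06 and 12.7 RPKM in SCs CTRL and at 35.3 and 51.3 RPKM in SCs DT. Tnni1, the slow inhibitory subunit, was at 14.0 and 34.7 RPKM and at 61.9 and 84.7 RPKM. Tnnt1, the slow troponin T, was at 6.94 and 13.6 RPKM and at 26.1 and 38.4 RPKM. Their groups did not overlap, and their log2 fold changes of 2.15, 1.67 and 1.60 missed the threshold (adjusted p of 0.0621, 0.199 and 0.114, limma). Tnnt2, the troponin T of heart and of developing skeletal muscle, was at 16.3 and 33.9 RPKM in SCs CTRL and at 62.7 and 76.4 RPKM in SCs DT (log2 fold change 1.51, adjusted p = 0.147, limma). In α7Sca1 cells these 4 genes were between 1.10 and 3.46 RPKM in every library.

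The tropomyosins, which lie along the actin filament and have forms outside muscle as well, had the smallest differences of the group. Tpm3 was at 86.8 and 88.3 RPKM in SCs CTRL, at 70.0 and 76.6 RPKM in SCs DT and at 36.4 and 36.9 RPKM in α7Sca1 cells. It was the one gene of the 44 with a negative log2 fold change in SCs DT (-0.25, standard error 0.21, adjusted p = 0.785, limma), and both SCs DT libraries lay below both SCs CTRL libraries. Of its 50-base stretches, 40.0% also occur in Tpm3-rs7, so its level is uncertain. Tpm1 was at 69.1 and 76.0 RPKM in SCs CTRL and at 119.8 and 92.8 RPKM in SCs DT (log2 fold change 0.53, adjusted p = 0.666, limma). Tpm2 was at 105.0 and 141.9 RPKM and at 230.3 and 226.2 RPKM (log2 fold change 0.90, adjusted p = 0.332, limma). In α7Sca1 cells Tpm1 was at 11.8 and 5.86 RPKM and Tpm2 at 13.3 and 8.22 RPKM.

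The remaining thin filament genes encode proteins that set filament length. Tmod4, the tropomodulin that caps pointed ends in skeletal muscle, was at 0.110 and 0.388 RPKM in SCs CTRL, at 4.21 and 4.96 RPKM in SCs DT and at 0.157 and 0.192 RPKM in α7Sca1 cells. It rose in SCs DT by 2.17 on the log2 scale (standard error 0.17, adjusted p = 0.00608, limma). Its paralogue Tmod1, the leiomodins Lmod2 and Lmod3, which nucleate actin filaments, and the giant protein nebulin (Neb) were between 0.512 and 3.995 RPKM in SCs CTRL and between 2.58 and 7.19 RPKM in SCs DT. Their log2 fold changes were 1.01, 1.11, 1.02 and 1.12 (adjusted p of 0.132, 0.199, 0.197 and 0.132, limma). Tmod1 shares 39.2% of its 50-base stretches with other genes, mainly Tstd2 on the opposite strand.

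**Figure D3:**
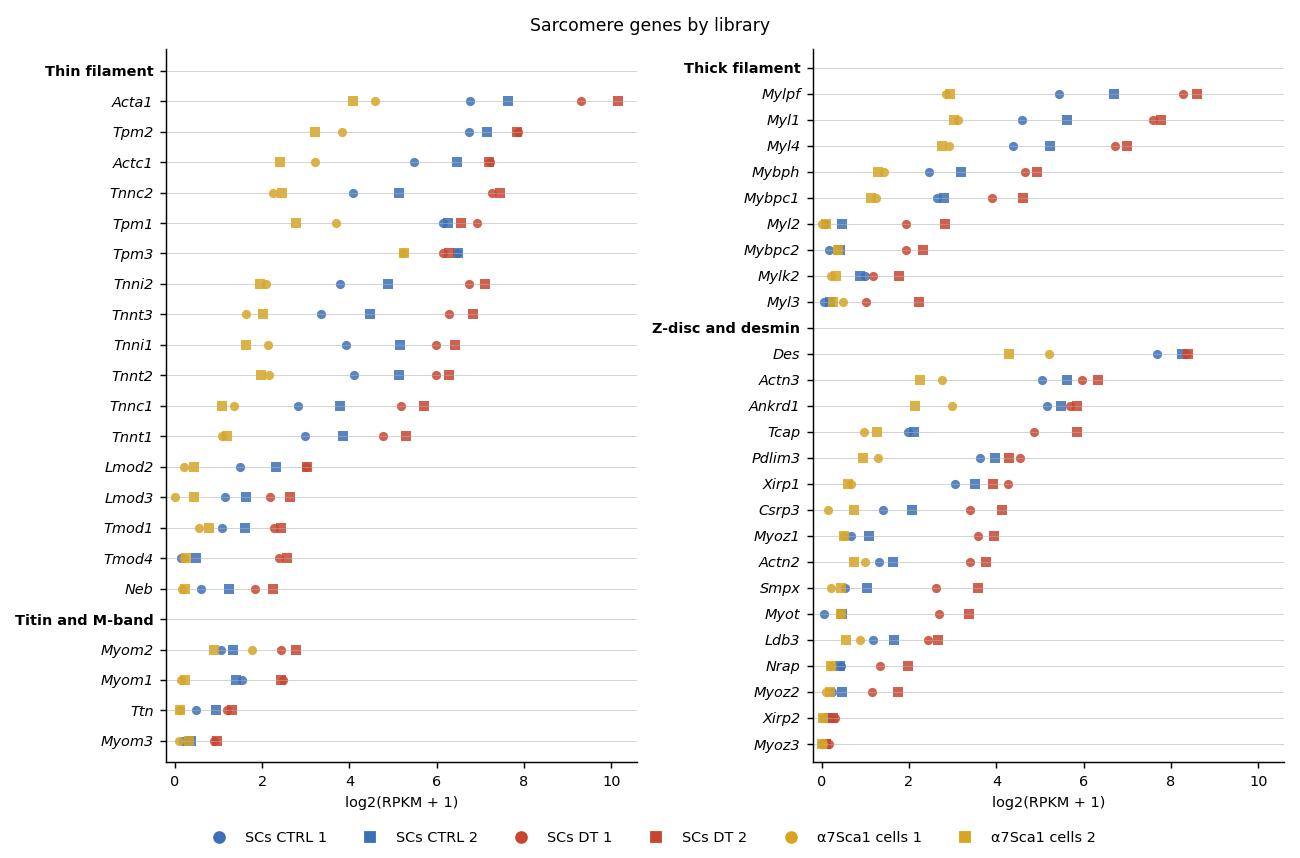
Level of the 46 sarcomere genes as log2(RPKM + 1) (x axis), 1 row per gene, with each of the 6 libraries as a point (circles for replicate 1, squares for replicate 2). The red points of SCs DT lie right of the blue points of SCs CTRL in all tested genes except Tpm3, and the yellow points of α7Sca1 cells lie left of SCs DT.

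Among the thick filament genes all 9 were tested and 4 rose in SCs DT. Mylpf, the regulatory light chain of fast fibres, was the most abundant of them, at 42.1 and 103.1 RPKM in SCs CTRL, at 307.6 and 386.4 RPKM in SCs DT and at 6.15 and 6.62 RPKM in α7Sca1 cells. Its log2 fold change of 2.37 (standard error 0.40) missed the threshold (adjusted p = 0.0711, limma). Myl1, the essential light chain of fast fibres, was at 22.9 and 48.1 RPKM, at 191.1 and 215.9 RPKM, and at 7.72 and 7.10 RPKM. This was a rise of 2.58 on the log2 scale in SCs DT (standard error 0.34, adjusted p = 0.0366, limma).

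Myl2, the regulatory light chain of slow fibres and ventricle, was at 0.0552 and 0.380 RPKM in SCs CTRL, at 2.79 and 6.02 RPKM in SCs DT, and at 0 and 0.0624 RPKM in α7Sca1 cells. Its rise in SCs DT was 2.10 on the log2 scale (standard error 0.29, adjusted p = 0.0371, limma). Myl3, the essential light chain that accompanies it, was at 0.0395 and 0.139 RPKM, at 1.01 and 3.71 RPKM, and at 0.410 and 0.189 RPKM (log2 fold change 1.499 in SCs DT, adjusted p = 0.169, limma). Both slow light chains were thus near 0 in SCs CTRL. Myl4, the embryonic and atrial essential light chain, was far more abundant, at 19.7 and 36.8 RPKM in SCs CTRL, at 104.3 and 125.7 RPKM in SCs DT and at 6.49 and 5.70 RPKM in α7Sca1 cells. It lay just outside the threshold (log2 fold change 2.05, adjusted p = 0.0528, limma).

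The myosin binding proteins, which link the thick filament to titin and actin, followed. Mybph was at 4.50 and 8.09 RPKM in SCs CTRL, at 24.0 and 29.4 RPKM in SCs DT and at 1.69 and 1.45 RPKM in α7Sca1 cells. Its rise in SCs DT was 1.96 on the log2 scale (standard error 0.27, adjusted p = 0.0409, limma). Mybph shares 26.6% of its 50-base stretches with Adora1 on the opposite strand, which was at most 0.346 RPKM in the SC libraries and at 6.22 and 5.77 RPKM in α7Sca1 cells. Mybpc2, the fast form, was at 0.124 and 0.329 RPKM in SCs CTRL, at 2.83 and 4.01 RPKM in SCs DT and at 0.264 and 0.291 RPKM in α7Sca1 cells. It rose in SCs DT by 1.84 on the log2 scale (standard error 0.18, adjusted p = 0.0089, limma). Mybpc1, the slow form, was at 5.20 and 5.95 RPKM, at 14.0 and 23.5 RPKM, and at 1.38 and 1.19 RPKM (log2 fold change 1.55, adjusted p = 0.0687, limma). Mylk2, the kinase of skeletal light chains, had the smallest log2 fold change of the thick filament group (0.53, adjusted p = 0.437, limma).

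Titin and the M-band proteins were of low RPKM and none passed the test (limma). All 4 were higher at an unadjusted p under 0.05, as were 5.26% of all genes. Myom2, an M-band protein of fast fibres and heart, was at 1.07 and 1.51 RPKM in SCs CTRL, at 4.38 and 5.79 RPKM in SCs DT and at 2.43 and 0.865 RPKM in α7Sca1 cells (log2 fold change in SCs DT 1.41, adjusted p = 0.132, limma). Myom1, the M-band protein present in all striated fibres, had the smallest adjusted p of the group (log2 fold change 0.99, adjusted p = 0.0581, limma). Titin (Ttn), the elastic spring from Z-disc to M-band, and Myom3 had log2 fold changes of 0.54 and 0.64 (adjusted p of 0.320 and 0.114, limma). In all 4 genes both SCs DT libraries lay above both SCs CTRL libraries, as they did in 21.6% of all genes.

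Tcap of the Z-disc group had the largest log2 fold change of the 44 genes, and Des and Ankrd1 the smallest of the group. Tcap (telethonin), which caps the end of titin in the Z-disc, was at 2.94 and 3.30 RPKM in SCs CTRL, at 28.3 and 56.2 RPKM in SCs DT and at 0.955 and 1.41 RPKM in α7Sca1 cells. It rose in SCs DT by 3.31 on the log2 scale (standard error 0.32, adjusted p = 0.0089, limma). Myoz1, the calcineurin-binding myozenin of fast fibres, was at 0.595 and 1.12 RPKM, at 10.9 and 14.5 RPKM, and at 0.425 and 0.415 RPKM. It rose by 2.89 (standard error 0.22, adjusted p = 0.00608, limma). Myot (myotilin), an actin-bundling Z-disc protein, was at 0.0401 and 0.382 RPKM in SCs CTRL, at 5.38 and 9.29 RPKM in SCs DT, and at 0.343 and 0.353 RPKM in α7Sca1 cells. It rose by 2.76 (standard error 0.26, adjusted p = 0.0089, limma).

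Actn2, the α-actinin of heart and of all skeletal fibres, was at 1.49 and 2.09 RPKM in SCs CTRL, at 9.46 and 12.6 RPKM in SCs DT and at 0.996 and 0.660 RPKM in α7Sca1 cells. It rose by 2.11 on the log2 scale (standard error 0.22, adjusted p = 0.0130, limma). Smpx, a small striated-muscle protein, was at 0.443 and 1.06 RPKM, at 5.11 and 10.95 RPKM, and at 0.155 and 0.362 RPKM. It rose by 2.31 (standard error 0.33, adjusted p = 0.0426, limma). Actn3, the α-actinin of fast fibres, was already at 32.0 and 48.1 RPKM in SCs CTRL, against 60.8 and 79.2 RPKM in SCs DT and 5.74 and 3.76 RPKM in α7Sca1 cells (log2 fold change 0.81 in SCs DT, adjusted p = 0.404, limma). Myoz2, the slow and cardiac myozenin, was at 0.175 and 0.387 RPKM, at 1.21 and 2.33 RPKM, and at 0.0615 and 0.146 RPKM (log2 fold change 1.09, adjusted p = 0.0944, limma).

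Des (desmin), the intermediate filament that ties Z-discs together and is already present in activated SCs, was the gene of highest RPKM among the 46 in SCs CTRL. It was at 202.7 and 303.8 RPKM there, at 325.1 and 334.1 RPKM in SCs DT and at 36.2 and 18.4 RPKM in α7Sca1 cells. The log2 fold change in SCs DT was 0.41 (standard error 0.37, adjusted p = 0.806, limma). Ankrd1, a stress-responsive partner of titin, was at 34.7 and 43.9 RPKM, at 50.5 and 56.7 RPKM, and at 6.86 and 3.38 RPKM (log2 fold change 0.44, adjusted p = 0.719, limma). The other Z-disc genes tested were Csrp3 (muscle LIM protein), the nebulin-related Nrap, the PDZ-LIM proteins Ldb3 and Pdlim3, and the actin-binding Xirp1. They had log2 fold changes between 0.62 and 2.04 in SCs DT, and none of them passed. Myoz3 and Xirp2 stayed at or below 0.240 RPKM in every library and were not tested.

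The shares that the 4 parts of the sarcomere took of the summed level were compared between the SC groups. The thick filament genes made up 10.7% and 14.3% of the summed RPKM of the 46 genes in SCs CTRL and 21.96% and 20.9% in SCs DT. The Z-disc group, which desmin dominates, made up 33.2% and 30.6% in SCs CTRL and 18.7% and 16.6% in SCs DT. Its sum was nonetheless higher in SCs DT, at 552.9 and 633.5 RPKM against 297.0 and 435.1 RPKM in SCs CTRL. The thin filament share was 55.7% and 54.8%, against 59.0% and 62.2%. Titin and the M-band made up 0.393% and 0.307% in SCs CTRL and 0.374% and 0.332% in SCs DT, where the groups overlapped. The groups of 2 did not overlap in the other 3 shares, and an exact permutation test could not go below 0.333. Ratios of mean RPKM above 10 between SCs DT and SCs CTRL were found in 8 genes, which had means of 0.0892 to 3.12 RPKM in SCs CTRL, and such ratios are imprecise at low values.

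To see whether fast and slow forms differed equally, the log2 ratio of 9 pairs of isoforms was taken within each library. The ratio of fast Tnnt3 to slow Tnnt1 was 0.37 and 0.61 in SCs CTRL and 1.52 and 1.52 in SCs DT. That of Tnni2 to Tnni1 was -0.13 and -0.26 in SCs CTRL and 0.75 and 0.68 in SCs DT, and that of Tnnc2 to Tnnc1 was 1.25 and 1.35 in SCs CTRL and 2.09 and 1.74 in SCs DT. Relative to the slow form, the fast form thus stood higher in SCs DT in all 3 troponin subunits, with differences of 1.03, 0.91 and 0.61. The difference was 1.796 for Myoz1 to Myoz2 and 1.28 for skeletal Acta1 to cardiac Actc1. The α-actinins went the other way, with the ratio of Actn3 to Actn2 at 3.73 and 3.99 in SCs CTRL and at 2.56 and 2.56 in SCs DT, a difference of -1.30.

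The groups did not overlap in 8 of the 9 pairs, and the exact two-sided permutation p was 0.333 for each of these, the smallest that 2 against 2 libraries can give. The pairs of light chains depended on the pseudocount, because Myl2 and Myl3 were near 0 in SCs CTRL. The difference was 0.27 for Mylpf to Myl2, where the groups overlapped, and 1.08 for Myl1 to Myl3, but -1.56 and -0.88 with a pseudocount of 0.1 RPKM. For Mybpc2 to Mybpc1 it was 0.30, and 1.797 with that pseudocount. In 8 of the 9 pairs the difference was positive, against 6 of the 9 with a pseudocount of 0.1 RPKM.

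**Figure D4:**
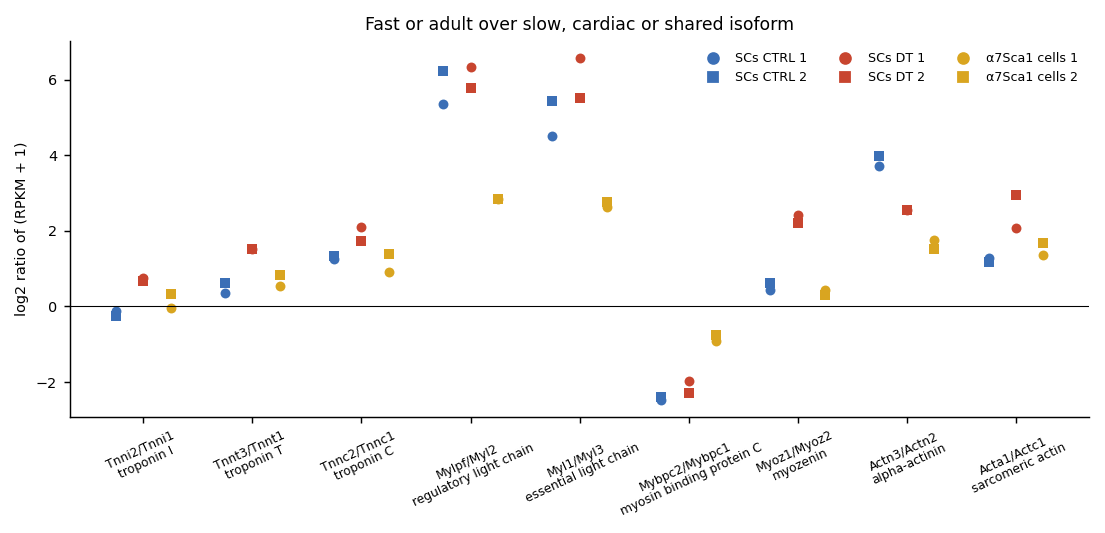
Log2 ratio of (RPKM + 1) of the fast or adult isoform to the slow, cardiac or shared isoform (y axis) for 9 pairs (x axis), 1 point per library. The SCs DT points lie above the SCs CTRL points for the troponins, myozenin and actin, and below them for Actn3 to Actn2.

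In α7Sca1 cells all 44 tested genes were lower than in SCs DT (adjusted p from 0.000176 to 0.0332, limma), where 15.6% of all tested genes passed in that direction. The median log2 fold change was -3.24, beside -0.04 over all genes. The mean RPKM in α7Sca1 cells was between 0.708% and 49.99% of that in SCs DT, with a median of 4.66%. The highest of these percentages was that of Tpm3 and the lowest that of Myl2. Tpm3 was also the gene of highest RPKM among the 46 in α7Sca1 cells.

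Against SCs CTRL, 28 of the 44 genes were lower in α7Sca1 cells and none was higher, where 17.3% of all tested genes passed in the downward direction and 15.1% in the upward one. The median log2 fold change was -1.38, beside -0.06 over all genes. Tpm2 had the lowest log2 fold change (-3.42, standard error 0.29, adjusted p = 0.000297, limma), followed by Des (-3.21, adjusted p = 0.000917), Mylpf (-3.18, adjusted p = 0.00141) and Actc1 (-3.16, adjusted p = 0.00128). Transcripts of 20 genes were at 1 RPKM or more in both α7Sca1 libraries, and all 20 were among the 28 that were lower. Positive values, which 45.3% of all genes had, were found for 4 genes, Myl3 (0.25, adjusted p = 0.613), Myot (0.17, adjusted p = 0.643), Myom2 (0.15, adjusted p = 0.734) and Mybpc2 (0.06, adjusted p = 0.805), all of them at or below 1.51 RPKM in SCs CTRL. Of the 12 genes that rose in SCs DT, 4 were among these 28. The 3 comparisons share libraries, so they are not independent of each other.

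Other genes of the myofibril were listed for comparison. Of 39 genes of myofibril assembly, chaperoning and turnover, 36 were tested and 4 rose in SCs DT while none fell. The shares of all genes were 0.352% and 0.0933%. The median log2 fold change of the 36 was 0.51. Hspb7, a small heat shock protein of heart and muscle, was at 1.76 and 1.79 RPKM in SCs CTRL and at 9.54 and 12.3 RPKM in SCs DT (log2 fold change 2.09, adjusted p = 0.0089, limma). Trim63 (MuRF1), a ubiquitin ligase of sarcomere proteins, was at 0.422 and 1.24 RPKM and at 6.48 and 10.7 RPKM (2.39, adjusted p = 0.0286, limma). Its relative Trim54 was at 0.277 and 0.453 RPKM and at 2.74 and 4.48 RPKM (1.73, adjusted p = 0.0227, limma). Ankrd23, which binds titin, was at 0.816 and 0.855 RPKM and at 4.27 and 6.56 RPKM (1.78, adjusted p = 0.0236, limma). In α7Sca1 cells 26 of the 36 were lower and 1 higher against SCs DT, beside 15.6% of all genes lower and 2041 of 13934 higher. Against SCs CTRL 20 were lower and 2 higher, beside 17.3% and 15.1% of all genes.

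The cytoplasmic counterparts of these proteins, such as the non-muscle actins, myosins, tropomyosins and α-actinins, showed no such pattern in SCs DT. None of 20 passed in SCs DT (limma), where 0.352% of all genes tested rose and 0.0933% fell. At an unadjusted p under 0.05 (limma), 2 were higher and 1 lower, beside 5.26% and 5.14% of all genes. The median log2 fold change of the 20 was -0.06. In α7Sca1 cells, however, most of them were low as well. Against SCs DT their median log2 fold change was -1.45. There 14 of the 20 were lower and none higher, beside 15.6% of all genes lower and 2041 of 13934 higher. Against SCs CTRL 15 were lower and 1 higher (median -1.39), beside 17.3% and 15.1% of all genes. Actb, cytoplasmic β-actin, stood at 7389 and 2907 RPKM in SCs CTRL and at 7389 and 7389 RPKM in SCs DT, the highest value of the table in 3 of these 4 libraries. Since the libraries share a common distribution, a rise of Actb above this value could not be seen. Vim (vimentin) was at 710.6 and 855.5 RPKM in SCs CTRL and at 1417 and 913.0 RPKM in SCs DT (log2 fold change 0.54, adjusted p = 0.629, limma).

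Markers of other states and cell types were set beside the sarcomere genes, and the direction differed between the lists. Of all genes tested, 0.352% rose and 0.0933% fell in SCs DT, and 5.26% were higher and 5.14% lower at an unadjusted p under 0.05 (limma). Of 16 genes of mature muscle fibres outside the sarcomere, 10 rose in SCs DT, with a median log2 fold change of 1.75 over the list. At an unadjusted p under 0.05, 13 were higher and 1 lower (limma). The lower one was Mstn, at 2.69 and 0.519 RPKM in SCs CTRL and at 0.245 and 0.211 RPKM in SCs DT. The 16 genes summed to 126.3 and 180.4 RPKM in SCs CTRL and to 454.3 and 593.4 RPKM in SCs DT. In α7Sca1 cells they summed to 27.5 and 20.2 RPKM. Of 10 genes of differentiating myoblasts none passed (limma), 5 were higher at an unadjusted p under 0.05, and the sums were 194.8 and 322.8 RPKM in SCs CTRL, against 407.3 and 467.2 RPKM after DT. Of 10 SC markers, 3 were lower at an unadjusted p under 0.05, and 1 fell in SCs DT, Calcr, the calcitonin receptor of quiescent SCs, from 12.2 and 13.9 RPKM to 1.56 and 2.21 RPKM.

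Of 10 adipocyte markers, 1 rose in SCs DT and 7 were higher there at an unadjusted p under 0.05 (limma, median log2 fold change 1.13). All 10 were higher in α7Sca1 cells than in either SC group, beside 2041 of 13934 genes against SCs DT and 15.1% against SCs CTRL. Their sums were 122.2 and 102.3 RPKM in SCs CTRL, against 275.1 and 709.1 RPKM in SCs DT and 11930 and 12240 RPKM in α7Sca1 cells, with Lep at 0 in all 4 SC libraries. Of 11 macrophage and monocyte markers 1 fell in SCs DT, 8 were lower at an unadjusted p under 0.05, and all 11 had a negative log2 fold change (median -1.08). Their sums were 962.6 and 515.5 RPKM in SCs CTRL, against 241.9 and 473.2 RPKM after DT, with none at 0. No marker of fibro-adipogenic progenitors, smooth muscle and pericytes or endothelium passed in SCs DT (limma), of 10, 11 and 6 genes, with 5, 1 and 0 at an unadjusted p under 0.05. Of the 5 progenitor markers 4 were lower in SCs DT, Col1a1, Col1a2, Col3a1 and Dpt, and 1 was higher, Ly6a. Col1a1, Col1a2 and Col3a1 were higher in SCs CTRL replicate 1 (2287, 386.4 and 270.7 RPKM) than in replicate 2 (192.5, 71.7 and 108.3 RPKM). The 1 marker of smooth muscle and pericytes was higher. The part of fibre fragments, differentiating cells or other cell types in the levels of the sarcomere genes was not tested.

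**Figure D5:**
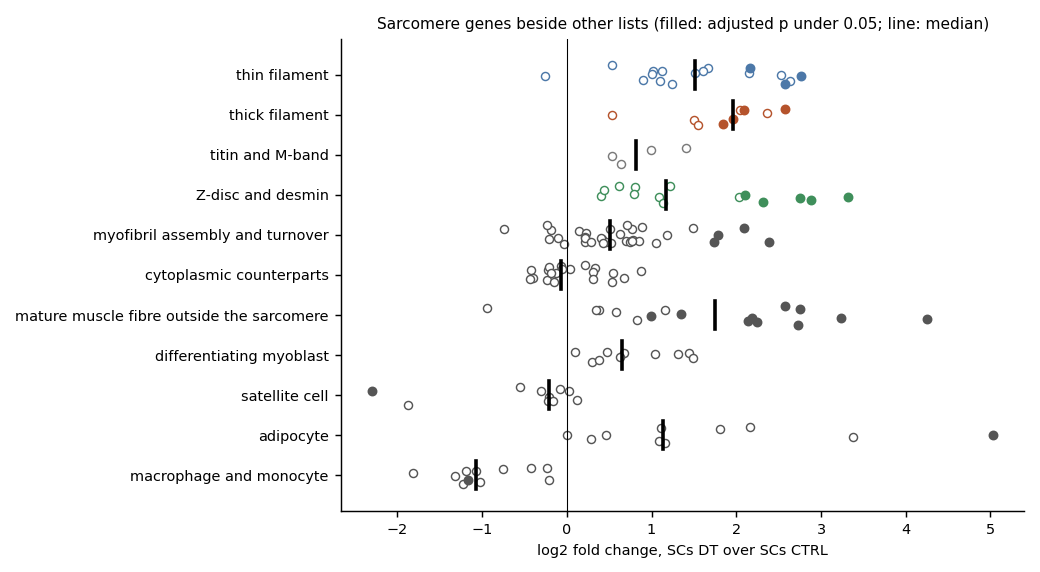
Log2 fold change of SCs DT over SCs CTRL (x axis, log2(RPKM + 1) scale) for each tested gene of the 4 sarcomere groups and of 7 other lists (rows), with a black line at each list's median. The sarcomere medians of 0.81 to 1.96 lie right of that of the cytoplasmic counterparts (-0.06) and on the side of the mature fibre genes (1.75).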

How the data were processed

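RNA-Seq libraries were made by the authors from 5 ng of total RNA by SMART-seq2 and read as 50 bp single ends. Per the deposited notes and the methods of the study, reads were aligned to mm9 with TopHat (2.0.6 in the methods, TopHat2 2.0.8 in the submitters' notes), and the authors deposited RPKM values, brought to one distribution. A deposited table of the authors' own DESeq2 comparison (log2 fold changes and p-values) was not used, nor were its 10 columns of values per sample, 4 of them of another cell type. Groups come from the sample titles.

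From these values a linear model of log2(RPKM + 1) was made in limma 3.58.1 under R 4.3.3, with all 6 libraries, a variance trend and no replicate block (3 residual and 4.29 prior degrees of freedom). It was checked on simulated data with the same spread in every gene. Such a check cannot show how stable the calls in these libraries are. p-values measure the spread between pools of 2 mice. The members, lists and tests were chosen with earlier results of these data known. Values per library are given for members past the threshold in SCs DT, the 10 of highest mean RPKM in SCs, members of isoform pairs, and those against the majority or at 1 RPKM or more in both α7Sca1 libraries, and pathway genes were named by lowest p or highest RPKM. Shared 50-base stretches and distances are from GENCODE release 1 (NCBIM37), and promoters from RefSeq (GRCm38.p6). Alternatives were other pseudocounts, filters, scalings and spreads, a replicate block, and each library left out. Python 3.11.15, pandas 2.3.3 and matplotlib 3.10.9 were used.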

Additional observations from a re-analysis of the deposited data

How the results depend on the processing

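Of the 12 sarcomere genes called in SCs DT against SCs CTRL, 0 were called without a filter on low values, 0 in a fit on the 4 SC libraries alone (limma, 40 at an unadjusted p under 0.05 in each) and 6 with eBayes without trend. Leaving out 1 library gave 0 to 11. Each of the 12 genes was called in 7 to 12 of 16 alternatives, Myl2 and Smpx in 7 and Tmod4 and Myoz1 in 12. Of the 4 other myofibril genes, 0 were called without the filter, 0 on the 4 SC libraries alone, 2 without trend and 0 to 3 with 1 library left out. The counts for α7Sca1 cells (44 and 28) stayed within 1.5 times, and no log2 fold change of SCs DT against SCs CTRL or of α7Sca1 cells against SCs DT turned its sign. How many of all genes passed without the filter, on the 4 SC libraries alone or without trend is not given here.

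Against SCs CTRL, small values for α7Sca1 cells reversed when 1 library was left out, those of Tmod4 (-0.241 to 0.0816, positive without SCs CTRL replicate 2), Mybpc2 (-0.0570 to 0.185, negative without SCs CTRL replicate 1), Myom2 (-0.289 to 0.588, negative without α7Sca1 replicate 1), Myom3 (-0.200 to 0.0377, positive without SCs CTRL replicate 2, at 0.00993, or α7Sca1 replicate 1) and Myot (-0.0364 to 0.374, negative without SCs CTRL replicate 1). The cause was not tested.

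The labels give replicate numbers with no word on pairing. With the replicate block 19 sarcomere genes rose in SCs DT (0.481% of all genes tested, against 0.352% without the block), and in α7Sca1 cells 44 and 31 were lower against SCs DT and SCs CTRL (16.0% and 17.8% of all genes). The differences between replicates correlated across genes at -0.13 between SCs CTRL and SCs DT, at 0.26 between SCs DT and α7Sca1 cells and at 0.16 between SCs CTRL and α7Sca1 cells. With the SCs CTRL numbers crossed, an alternative chosen after seeing the data, the block gave 12, 44 and 29 (0.388%, 15.8% and 17.4% of all genes). The depth is unknown, which limits what can be said of genes below 1 RPKM.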
